A study of Mus musculus with 30 samples.

Results

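The interleukin-17 (IL-17) receptor axis was followed through 9 genes, the ligand and partner cytokine genes *Il17a*, *Il22* and *Il23a*, the receptor subunit genes *Il17ra*, *Il17rb* and *Il17rc*, the adaptor gene *Traf3ip2* and the downstream regulators *Nfkbiz* and *Zc3h12a*. They were taken by symbol, as the pathway that the antibody targets, from 2 tables of RNA-seq counts, 1 for BM and 1 for adipose tissue macrophages (ATMs). Of the 17336 genes listed in either table, these are 9. All 9 were among the 17059 genes of the ATM table and 7 were among the 13353 genes of the BM table. *Il17rc* and *Il23a* were not analysed in BM.

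Each tissue had 15 libraries, 3 for each of 5 groups. By the study's methods, every recipient was lethally irradiated and given a mix of CD45.2+ BM cells from *Shp2*E76K/+;*LysM*-Cre+ donors, which carry an activating mutation of the phosphatase Shp2 in myeloid cells, and CD45.1+ competitor cells of the Boy/J strain. The recipients were either WT C57BL/6 mice, which have no treatment label (WT), or leptin-deficient *Ob/Ob* mice. The *Ob/Ob* mice received vehicle (Vehicle), beinaglutide, which is a GLP-1R agonist, an antibody to IL-17A, or the 2 agents together (Combo). The agents were given for 30 days from 8 weeks after the transplant, beinaglutide at 3 mg/kg and the antibody at 200 µg per mouse. The labels give the mice as 12 to 14 weeks old and of both sexes. The methods give another age for recipients at transplant, so the label age may not be the age at sampling. By those methods all 5 groups share the transplant, and each also holds competitor cells and the cells that the host keeps. For the WT libraries of ATMs, however, the donor is not certain, and if it was not mutant, donor and recipient cannot be told apart in Vehicle vs WT. Whether a group's libraries came from separate mice is not given in the sources used here, so the p-values measure the spread between these libraries, which may be technical.

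IL-17A is a cytokine made mainly by Th17 cells, γδ T cells and innate lymphoid cells, and IL-23, whose p19 subunit is encoded by *Il23a*, sustains those cells, many of which also make IL-22. IL-17A binds a receptor of IL-17RA and IL-17RC, whereas IL-17RA pairs with IL-17RB to bind IL-25. The receptor recruits the adaptor Act1 (*Traf3ip2*), which leads to NF-κB and MAPK signalling and to stabilised target mRNAs. Among the induced products are IκBζ (*Nfkbiz*), a nuclear cofactor for secondary response genes, and the RNase Regnase-1 (*Zc3h12a*), which degrades inflammatory mRNAs and so restrains the pathway. In adipose tissue and BM this axis is known for driving chemokines, acute-phase genes and granulopoiesis.

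BM libraries held 31086184 to 39925495 counts and ATM libraries 24876074 to 45300263. The biological coefficient of variation was 3.51% in BM and 32.5% in ATMs, so smaller differences passed the test in BM. WT replicate 1 of BM stood apart from the other BM libraries, with 19224 CPM of the ribosomal RNA precursor *Rn45s* against 4591 to 7192, and leaving it out changed no call on the 9 genes in the 4 comparisons with Vehicle. In the ATM libraries, all 10 macrophage markers were detected, at a summed 2441 to 7801 CPM. The sum was 2709 to 2820 CPM in WT, 2441 to 2658 in Vehicle and 5446 to 5637 under the GLP-1R agonist. It was 7617 to 7801 CPM under the antibody and 4541 to 4655 in Combo. *Adgre1*, which encodes the sorting antigen F4/80, was lowest in Vehicle, at 1404 ± 373 normalized counts against 6913 ± 636 in WT (SD, n = 3 each; log2 difference −2.30), so the Vehicle libraries carried less of the gene for the marker they were sorted on. The summed level of 9 neutrophil markers was 20771 to 21982 CPM in Vehicle and 12272 to 12600 CPM in Combo, against 148 to 373 CPM in the 9 other ATM libraries, and no marker of the list was at 0 in any library. Markers from outside the immune system also differed between groups. The 9 stromal and endothelial genes were at 6018 to 6377 CPM in WT and 3909 to 4255 in Vehicle. They were at 10679 to 11064 CPM under the GLP-1R agonist and 9643 to 9722 under the antibody. In each of these groups this was above the macrophage sum. The 5 epididymis and seminal vesicle genes were at 2973 to 3123 CPM in WT, 1432 to 1484 under the GLP-1R agonist, 405 to 414 under the antibody and 0 to 1.2 in Vehicle and Combo. The 8 pancreatic acinar genes were at 959 to 979 CPM in the Combo libraries of ATMs and at 7.6 to 27.6 CPM in the other 12, so the Combo libraries stood apart in this respect. The part of these tissues in the ATM values was not tested. In bulk samples, fewer cells of a type and less RNA per cell cannot be told apart.

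The promoters of the 2 lymphocyte cytokine genes and of *Zc3h12a* are shown because the first were at or near 0 counts in every BM group but Vehicle, whereas *Zc3h12a* was measured in every library of both tissues. The sequences are RefSeq's on GRCm38, 5′ to 3′ on the gene's strand, up to the base before the annotated gene start or, for *Zc3h12a*, RefSeq's own start. *Il17a* lies at chr1:20730655-20730904 on the plus strand, *Il22* at chr10:118204714-118204941 on the plus strand and *Zc3h12a* at chr4:125127882-125128131 on the minus strand. Capitals mark matches, on either strand, to an NF-κB motif (GGGNNNNNCC), a GAS motif (TTCNNNGAA), a ROR element (AGGTCA) or an AP-1 motif (TGANTCA), and no marked matches overlapped each other.
Il17a: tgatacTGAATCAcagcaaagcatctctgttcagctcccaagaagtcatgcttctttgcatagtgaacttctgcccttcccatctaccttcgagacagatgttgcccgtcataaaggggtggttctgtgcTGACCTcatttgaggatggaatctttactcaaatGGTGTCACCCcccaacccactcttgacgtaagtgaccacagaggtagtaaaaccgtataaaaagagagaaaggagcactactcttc
Il22: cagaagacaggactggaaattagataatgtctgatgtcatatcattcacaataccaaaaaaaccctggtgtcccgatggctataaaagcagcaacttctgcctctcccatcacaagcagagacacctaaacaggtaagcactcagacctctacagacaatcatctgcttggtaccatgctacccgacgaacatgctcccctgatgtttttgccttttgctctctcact
Zc3h12a: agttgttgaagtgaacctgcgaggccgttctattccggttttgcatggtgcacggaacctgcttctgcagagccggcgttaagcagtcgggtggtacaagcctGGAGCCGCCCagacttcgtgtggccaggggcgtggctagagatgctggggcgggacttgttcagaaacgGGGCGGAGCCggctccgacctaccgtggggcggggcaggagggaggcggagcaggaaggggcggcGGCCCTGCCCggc
The *Il17a* window held an AP-1 match at −244 to −238, a ROR match at −120 to −115 and an NF-κB match at −86 to −77 from the start. The *Zc3h12a* window held 3 NF-κB matches, at −147 to −138, −78 to −69 and −13 to −4. The *Il22* window held none of these letters. It has 228 bases, fewer than the 250 of *Il17a* and *Zc3h12a*, so shares over windows of 250 bases do not apply to it exactly. Among 32817 RefSeq promoter windows of 250 bases, 45.8% held the NF-κB letters, 14.0% the ROR element, 7.01% the GAS letters and 6.75% the AP-1 letters, so a match to the first is common. Promoters were listed for 5 of the 9 genes.

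On GENCODE M21 models of the same build, *Il17a* spans chr1:20730905-20734496 with 1171 exon bases and *Il22* chr10:118204942-118210047 with 1110. *Il17ra* spans chr6:120463247-120487559 with 8662 exon bases, *Il17rb* chr14:29996135-30008896 with 3707 and *Il17rc* chr6:113471427-113483140 with 2671. *Traf3ip2* spans chr10:39612934-39655307 with 3687 exon bases, *Nfkbiz* chr16:55811375-55838899 with 5018, *Zc3h12a* chr4:125118423-125127840 with 2882 and *Il23a* chr10:128296139-128298752 with 2247. The authors counted reads on GENCODE M22 models, without regard to strand. The lengths and shares given here may thus differ slightly from those of the models used for counting. *Il17rb* shares 3.80% of its exon bases with *Actr8* and *Traf3ip2* 7.95% with *E130307A14Rik*, both on the other strand, so a part of their counts cannot be assigned to 1 gene.

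Per length, the receptor led in BM and IκBζ in ATMs. The mean level over the 15 BM libraries was 42.0 CPM per kb for *Il17ra*, 10.6 for *Nfkbiz*, 6.80 for *Zc3h12a*, 1.67 for *Traf3ip2*, 1.36 for *Il22*, 0.441 for *Il17rb* and 0.127 for *Il17a*. In ATMs it was 119 CPM per kb for *Nfkbiz*, 28.3 for *Zc3h12a*, 19.2 for *Il17ra*, 8.77 for *Il17rc*, 6.01 for *Traf3ip2*, 1.98 for *Il17a*, 1.69 for *Il22*, 0.956 for *Il23a* and 0.411 for *Il17rb*. The cytokine genes thus sat low among these genes in both tissues, and *Il17rb*, the IL-25 receptor subunit, was below 0.5 CPM per kb in each.

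In BM, the cytokine genes were found in Vehicle and almost nowhere else. *Il17a* had 18, 21 and 28 counts in the Vehicle libraries (0.586, 0.648 and 0.965 CPM), 1, 0 and 0 counts under the anti–IL-17A antibody, and 0 counts in all 9 libraries of WT, GLP-1R agonist and Combo. Vehicle thus did not overlap any other group. Against a floor of 3 counts per library, the Vehicle level was at least 8.70-fold higher than in WT (edgeR adjusted p = 7.92e-08). Against the same floor it was at least 9.0-fold lower under the GLP-1R agonist (edgeR adjusted p = 7.6e-08) and at least 8.15-fold lower in Combo (edgeR adjusted p = 1.32e-07). Under the antibody, with 1 count in 3 libraries, the level was 81.0-fold lower than in Vehicle, with an exact 95% interval of 14.1 to 3247 that covers counting error only (edgeR adjusted p = 2.01e-07). That count was in antibody replicate 1, without which the group was at 0. If a cut on totals was made, *Il17a* is in the BM table only through Vehicle. Its p-values are then not independent of that cut.

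*Il22*, which encodes the cytokine that acts mainly on epithelial barriers, followed the same pattern at a higher count. The Vehicle libraries had 190, 269 and 238 counts (6.19, 8.30 and 8.20 CPM), and all 12 other BM libraries had 0. This is at least 89.7-fold higher than in WT (edgeR adjusted p = 1.66e-18). It was at least 92.8-fold lower under the GLP-1R agonist, at least 93.3-fold lower under the antibody and at least 84.1-fold lower in Combo (edgeR adjusted p = 1.5e-18, 1.53e-18 and 2.72e-18). With counts in Vehicle only, *Il22* is in the BM table through that group alone if a cut on totals was made. These p-values are then not independent of the cut. The summed level of the 9 T cell markers analysed was 101 to 105 CPM in WT, 83.8 to 88.2 in Vehicle, 105 to 115 under the GLP-1R agonist, 72.2 to 74.2 under the antibody and 41.5 to 45.2 in Combo. The 4 analysed genes of the γδ T cell and innate lymphoid cell list include no T cell receptor gene and are also expressed by other lymphocytes. They were at 75.4 to 83.0 CPM in WT, 82.3 to 85.2 in Vehicle and 59.1 to 62.5 under the GLP-1R agonist. Under the antibody they were at 57.0 to 59.2 CPM and in Combo at 28.6 to 31.7, so every treated group was below Vehicle. The part of either cell type in the results was not tested.

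*Il17ra*, the subunit shared by the IL-17 family receptors, showed small graded differences in BM. The WT libraries were at 313, 327 and 326 CPM and the Vehicle libraries at 334, 351 and 350. The GLP-1R agonist libraries were at 370, 359 and 358, the antibody libraries at 374, 386 and 379, and the Combo libraries at 410, 411 and 414. With TMM scaling the groups rose in the order WT, Vehicle, GLP-1R agonist, antibody, Combo. Each neighbouring pair passed the false discovery rate, but none differed by more than 1 on the log2 scale. Vehicle was 0.10 ± 0.03 above WT (log2 ± SE, edgeR adjusted p = 0.000529) and Combo 0.26 above Vehicle (edgeR adjusted p = 5.81e-12). Scaled by library totals alone, the first of these was −0.027, so its direction depended on the scaling. Library totals alone also moved the median of all BM genes by 0.23 under the GLP-1R agonist and by −0.02 in Combo, each against Vehicle. Neighbouring groups differed by only 0.07 to 0.12 on the log2 scale, so the order of the groups rested on the scaling too.

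*Il17rb* was scarce in BM, with 28 to 87 counts a library. It was at 1.39, 1.42 and 2.16 CPM in WT and 2.7, 2.68 and 2.10 in Vehicle, which overlapped. Under the GLP-1R agonist it was at 1.08, 1.21 and 1.61 CPM, under the antibody at 1.57, 1.57 and 1.93, and in Combo at 0.975, 0.851 and 1.26. All treated libraries were below all Vehicle libraries. Combo fell by 1.28 ± 0.24 on the log2 scale against Vehicle (edgeR adjusted p = 7.45e-06), past the limit of 1, whereas the differences of −0.95 under the GLP-1R agonist (edgeR adjusted p = 0.000263) and −0.56 under the antibody (edgeR adjusted p = 0.0195) stayed inside it. The GLP-1R agonist value passed the limit without Vehicle 3 or GLP-1R agonist 3, to −1.13 at the lowest.

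*Traf3ip2*, the Act1 adaptor gene, was the 1 gene of the 7 with its highest mean BM level in WT. Its levels were 9.79, 10.2 and 11.5 CPM in WT against 6.51, 5.27 and 6.34 in Vehicle, with no overlap (log2 difference −0.79 ± 0.11, edgeR adjusted p = 2.04e-08). The GLP-1R agonist libraries, at 5.76, 5.69 and 6.13 CPM, lay among the Vehicle libraries (log2 difference −0.04, edgeR adjusted p = 0.749). The antibody libraries were at 4.40, 5.16 and 5.49 CPM and the Combo libraries lowest, at 3.01, 3.62 and 3.33. Combo was below Vehicle by −0.86 ± 0.13 on the log2 scale (edgeR adjusted p = 1.12e-07). Against WT, the log2 difference was −1.66 ± 0.12 in Combo and −1.06 ± 0.11 in the antibody group (edgeR adjusted p = 4.37e-16 and 3.1e-11), and both passed the limit, where 14.3% and 6.32% of all BM genes did.

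*Nfkbiz* in BM was highest in Vehicle and lowest under the GLP-1R agonist. It was at 53.1, 47.5 and 45 CPM in WT and 70.4, 75.9 and 75.1 in Vehicle (log2 difference 0.60 ± 0.05, edgeR adjusted p = 4.98e-14). It was at 32.8, 32.0 and 31.1 CPM under the GLP-1R agonist, at 64.9, 65.7 and 63.1 under the antibody and at 44.0, 45.4 and 49.2 in Combo. Vehicle overlapped no other group. The GLP-1R agonist fell by 1.21 ± 0.05 on the log2 scale against Vehicle (edgeR adjusted p = 6.94e-23), and with library totals alone the value was −0.97, inside the limit. The antibody, whose difference from Vehicle was −0.19 (edgeR adjusted p = 0.000448), was 1.01 above the GLP-1R agonist on the log2 scale (edgeR adjusted p = 5.95e-20), where 5.83% of all BM genes were called.

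*Zc3h12a* stayed within the limit in every BM comparison. Its BM levels were 21.1, 17.4 and 18.9 CPM in WT and 24.2, 23.5 and 25.4 in Vehicle. They were 16.1, 17.9 and 17.8 CPM under the GLP-1R agonist, 22.1, 19.9 and 20.7 under the antibody and 16.4, 16.8 and 16.0 in Combo. Vehicle was above every other BM library, and no difference reached 1 on the log2 scale. The differences were 0.35 ± 0.07 for Vehicle vs WT (edgeR adjusted p = 1.75e-05) and −0.57 for Combo vs Vehicle (edgeR adjusted p = 1.69e-09).

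**Figure D1:**
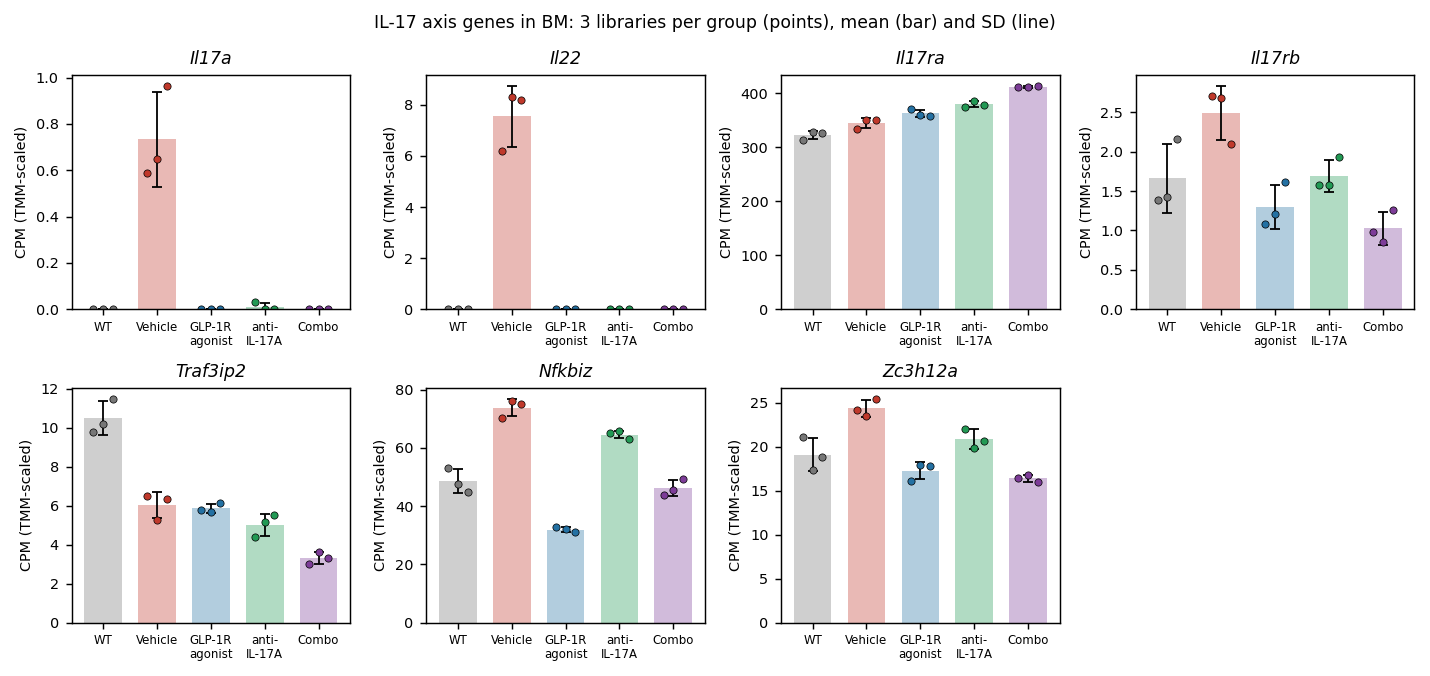
Levels of the 7 genes analysed in BM, in TMM-scaled CPM (y axis, from 0) for WT, Vehicle, GLP-1R agonist, anti–IL-17A antibody and Combo (x axis). Points are the 3 libraries of a group, bars their mean and lines the SD, which is not drawn below 0. *Il17a* and *Il22* have bars in Vehicle and are at or near 0 elsewhere, *Il17ra* lies between 313 and 414 CPM throughout, and *Traf3ip2* is highest in WT.

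Counted over the axis, 2 of the 7 genes (*Il17a* and *Il22*) passed both limits in Vehicle vs WT, both upward, where 19.5% of all BM genes passed in either direction and 9.44% upward. Under the GLP-1R agonist 3 fell (*Il17a*, *Il22*, *Nfkbiz*), where 16.7% of all genes were called and 9.08% fell. Under the antibody 2 fell (*Il17a*, *Il22*), against 16.1% of all genes called and 8.46% lower, and in Combo 3 fell (*Il17a*, *Il22*, *Il17rb*), against 17.7% called and 11.1% lower. The median log2 difference of the 7 genes was 0.60 in Vehicle vs WT (all genes −0.02), −0.95 under the GLP-1R agonist (0.01), −0.26 under the antibody (0.01) and −0.86 in Combo (0.02). All 4 comparisons share the 3 Vehicle libraries, so a high Vehicle value enters each of them. No gene of the BM table totalled under 55 counts, *Il22* had counts in Vehicle only and *Il17a* had 1 count outside it. If a cut on totals was made, both are in that table only through the Vehicle libraries. Their calls against Vehicle, and their part in these counts and in the tests between tissues, are then not independent of that cut.

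In ATMs, *Il23a* was high in Vehicle and low in every other group. The Vehicle libraries were at 10.8, 8.40 and 5.95 CPM (268, 190 and 132 counts), and the other 12 libraries lay between 0 and 1.36 CPM. WT was at 0.933, 0.254 and 0.558 CPM, the GLP-1R agonist at 0, 1.35 and 0.368, the antibody at 0.380, 0.600 and 0.650, and Combo at 0.625, 1.36 and 0. No library of another group reached Vehicle, whereas those 4 groups overlapped each other. The log2 difference was 3.85 ± 1.26 for Vehicle vs WT (edgeR adjusted p = 0.0171), and the falls against Vehicle were −3.90 ± 1.27 under the GLP-1R agonist, −3.94 ± 1.26 under the antibody and −3.65 ± 1.25 in Combo (edgeR adjusted p = 0.0174, 0.0145 and 0.0244). These calls were not firm, since leaving out single libraries (WT 2, WT 3, Vehicle 1, GLP-1R agonist 3, antibody 1 or Combo 1) took 1 or more of them past the threshold, to an adjusted p of at most 0.0675. The GLP-1R agonist value ranged from −5.46 (without GLP-1R agonist 2) to −3.30 (without GLP-1R agonist 1), and the Combo value reached −4.72 without Combo 2.

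*Il17a* in ATMs was graded between groups, whereas in BM it was at or near 0 outside Vehicle. With 18 to 28 counts in the BM Vehicle libraries, a grading of lower levels could not be seen in BM. Vehicle had 6.40, 5.17 and 8.39 CPM, Combo 3.54, 2.53 and 2.09, WT 0.897, 1.43 and 0.689, the antibody 1.10, 1.01 and 0.818 and the GLP-1R agonist 0.210, 0.531 and 0.0263. Vehicle stood above all other groups and the GLP-1R agonist below them. Vehicle rose by 2.72 ± 0.68 on the log2 scale over WT (edgeR adjusted p = 0.00297), and the differences from Vehicle were −4.74 ± 0.76 under the GLP-1R agonist and −2.76 ± 0.68 under the antibody (edgeR adjusted p = 7.6e-05 and 0.00259). Without GLP-1R agonist 2 the first was −5.80. The value for Combo, −1.29 ± 0.64, did not pass (edgeR adjusted p = 0.112), though DESeq2 called it and its libraries did not overlap those of Vehicle. Combo was 3.45 above the GLP-1R agonist on the log2 scale (edgeR adjusted p = 0.0013), and the GLP-1R agonist was below WT by −2.02 (edgeR adjusted p = 0.0362). Those pairs had 18.7% and 15.1% of all ATM genes called.

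*Il22* in ATMs was present in both WT and Vehicle. WT was at 3.34, 2.41 and 3.09 CPM and Vehicle at 3.62, 4.73 and 4.96, a difference that did not pass (log2 0.59 ± 0.73, edgeR adjusted p = 0.51). The GLP-1R agonist left 0.210, 0 and 0.131 CPM, the antibody 0.972, 1.22 and 0.241, and Combo 0.885, 1.74 and 0.600, all below every WT and Vehicle library. The log2 difference from Vehicle was −5.18 ± 0.90 under the GLP-1R agonist and −2.44 ± 0.77 under the antibody (edgeR adjusted p = 0.000165 and 0.0131). Without GLP-1R agonist 1 the first was −5.85. The difference of −2.04 ± 0.76 in Combo (edgeR adjusted p = 0.0366) was lost without WT 1, Vehicle 2, Vehicle 3, Combo 1 or Combo 3, and with library totals alone.

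Lymphocyte markers also differed between the ATM groups. The 9 T cell markers summed to 165 to 178 CPM in Vehicle, the lowest of the 5 groups, 344 to 378 in WT, 603 to 634 under the GLP-1R agonist, 662 to 679 under the antibody and 1188 to 1209 in Combo. The 4 analysed genes of the γδ T cell and innate lymphoid cell list were at 110 to 120 CPM in Vehicle and 181 to 257 CPM in the other groups. Vehicle thus had the lowest sums and the highest *Il17a* and *Il23a*, and Combo the highest T cell sum and the second highest mean *Il17a*. The part of these cells in the values was not tested.

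*Il17ra* in ATMs differed more than in BM, and between the 2 agents. It was at 114, 120 and 110 CPM in WT, 264, 278 and 249 in Vehicle and 273, 229 and 243 under the GLP-1R agonist. It was at 87.0, 83.1 and 91.8 CPM under the antibody and 123, 101 and 131 in Combo. Vehicle and the GLP-1R agonist overlapped at the top, Combo and WT overlapped below them, and the antibody group was lowest. *Il17ra* rose by 1.21 ± 0.09 on the log2 scale in Vehicle vs WT (edgeR adjusted p = 1.23e-08). The log2 difference from Vehicle was −1.60 under the antibody and −1.16 in Combo (edgeR adjusted p = 4.37e-10 and 2.43e-08), and −0.09 under the GLP-1R agonist (edgeR adjusted p = 0.434). With library totals alone the Vehicle vs WT value was 0.77 and the Combo value −0.74, both inside the limit.

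*Il17rc*, the partner subunit that completes the IL-17A receptor, did not share the Vehicle rise. Its levels were 27.3, 35 and 37.1 CPM in WT and 33.0, 33.0 and 34.8 in Vehicle (log2 difference 0.02 ± 0.17, edgeR adjusted p = 0.94). They were 18.8, 24.0 and 15.9 CPM under the GLP-1R agonist, 16.4, 16.8 and 13.0 under the antibody and 15.7, 14.1 and 16.7 in Combo. Every treated library was below every WT and Vehicle library. The log2 difference from Vehicle was −1.13 under the antibody and −1.12 in Combo (edgeR adjusted p = 3.97e-05 and 5.46e-05), with −0.78 under the GLP-1R agonist (edgeR adjusted p = 0.00112). With library totals alone the antibody and Combo values were −0.78 and −0.70, both inside the limit.

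*Il17rb* could not be read in ATMs. The 3 Vehicle libraries had 0, 78 and 3 counts, and the other groups had 26 to 95. No comparison passed, and the Vehicle vs WT value of −1.17 ± 1.12 (edgeR adjusted p = 0.389) became −5.28 without Vehicle 2. In that setting the antibody, GLP-1R agonist and Combo values became 4.07, 4.14 and 4.30 and were called, so the 1 library decided them.

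*Traf3ip2* in ATMs was again highest in WT and lowest under the antibody. WT was at 28.5, 28.7 and 34.0 CPM, Vehicle at 21.6, 23.5 and 23.1, the GLP-1R agonist at 26.1, 20.2 and 22, the antibody at 10.3, 14.0 and 11.9 and Combo at 20.4, 21.1 and 26.9. The middle groups overlapped each other and the antibody group overlapped none. The log2 difference was −0.42 ± 0.16 for Vehicle vs WT (edgeR adjusted p = 0.0361) and −0.91 ± 0.16 under the antibody (edgeR adjusted p = 0.000179). For Combo and for the GLP-1R agonist vs Vehicle it was 0.00 (edgeR adjusted p = 1 and 0.991). The antibody value passed the limit of 1 without antibody 2, at −1.03. The antibody group fell by 1.33 on the log2 scale against WT (edgeR adjusted p = 7.92e-06), a pair in which 18.7% of all genes were called.

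*Nfkbiz* was the most abundant of the 9 genes in ATMs and separated all 5 groups. It was at 683.6, 706.1 and 742.6 CPM in WT and 954.2, 1007.2 and 1020.0 in Vehicle. It was at 426.7, 431.3 and 417.3 CPM under the GLP-1R agonist, 301.1, 303.4 and 297.4 under the antibody and 546.6, 559.5 and 552.1 in Combo. The order was Vehicle, WT, Combo, GLP-1R agonist, antibody, without overlap, and each neighbouring pair passed the false discovery rate. The log2 difference from Vehicle was −1.72 under the antibody and −1.23 under the GLP-1R agonist (edgeR adjusted p = 2.52e-15 and 1.74e-13). Combo, at −0.85 against Vehicle (edgeR adjusted p = 1.79e-11), kept a higher level than either agent alone, and Vehicle was 0.48 ± 0.04 above WT (edgeR adjusted p = 1.51e-08).

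*Zc3h12a* was at 57.7, 54.9 and 60.7 CPM in WT and 127, 106 and 119 in Vehicle. It was at 85.3, 90.8 and 104 CPM under the GLP-1R agonist, 64.9, 70.6 and 58.1 under the antibody and 72.9, 76.0 and 74.4 in Combo. Vehicle was above every other library. The rise of 1.02 ± 0.10 on the log2 scale over WT (edgeR adjusted p = 2.26e-07) lay so near the limit of 1 that leaving out WT 2 or Vehicle 1 took it below, to 0.95 at the lowest, as did scaling by library totals alone. The antibody, Combo and GLP-1R agonist differences from Vehicle were −0.86, −0.66 and −0.33 (edgeR adjusted p = 1.46e-06, 3.38e-05 and 0.00905), none past the limit.

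**Figure D2:**
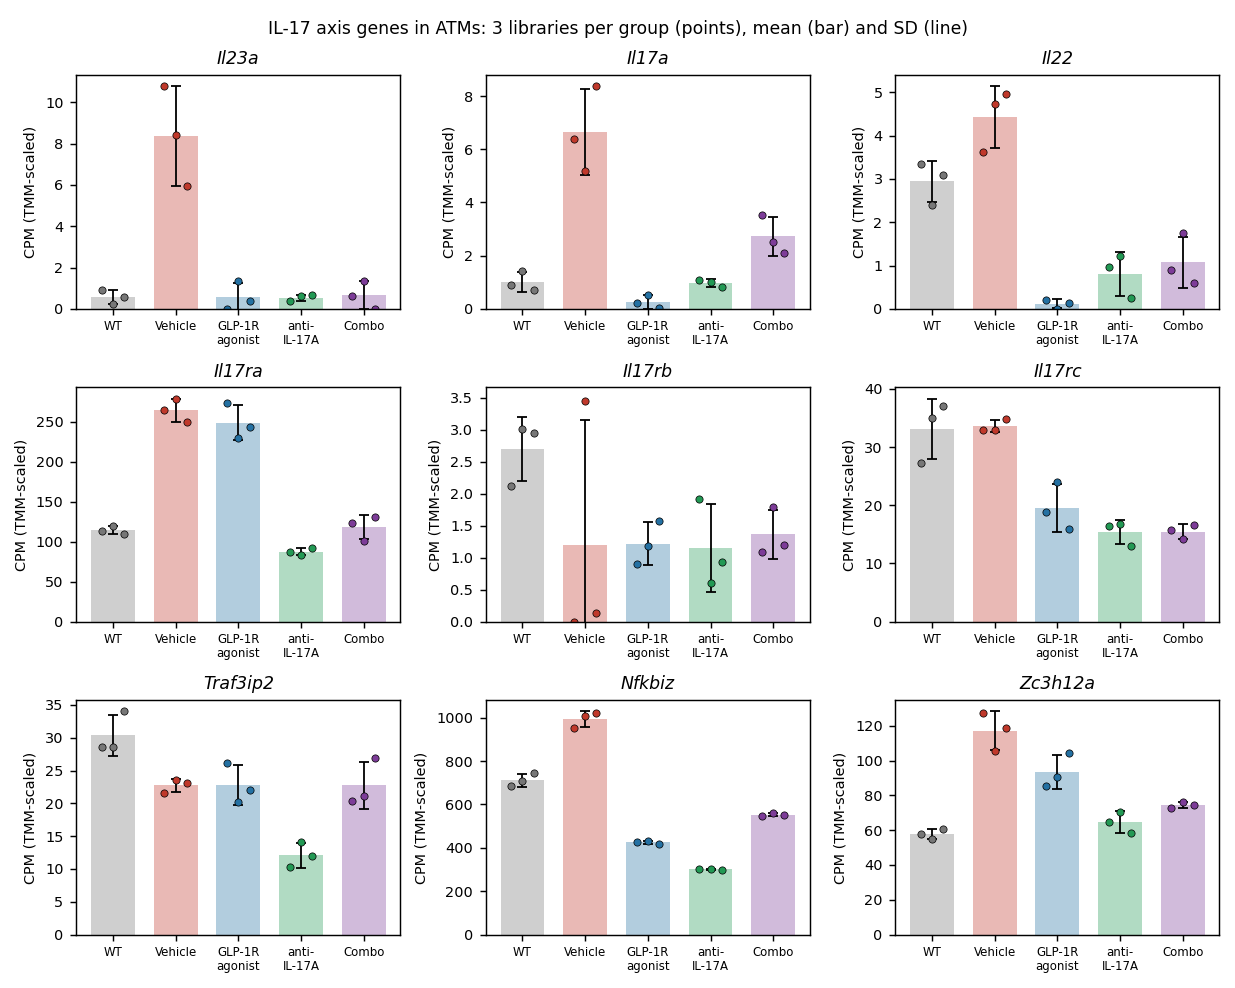
Levels of the 9 genes in ATMs, in TMM-scaled CPM (y axis, from 0) for WT, Vehicle, GLP-1R agonist, anti–IL-17A antibody and Combo (x axis). Points are the 3 libraries of a group, bars their mean and lines the SD, which is not drawn below 0. Vehicle has the highest bar for *Il23a*, *Il17a*, *Il22*, *Nfkbiz* and *Zc3h12a*, shares the top with the GLP-1R agonist for *Il17ra* and with WT for *Il17rc*, and has 1 *Il17rb* library far above its other 2.

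Of the 9 genes, 4 rose in Vehicle vs WT (*Il23a*, *Il17a*, *Il17ra*, *Zc3h12a*), where 35.4% of all ATM genes were called and 12.5% rose. Under the GLP-1R agonist 4 fell (*Il23a*, *Il17a*, *Il22*, *Nfkbiz*), against 31.8% of all genes called and 10.9% lower. Under the antibody 6 fell, those 4 with *Il17ra* and *Il17rc*, against 35.5% called and 13.1% lower. In Combo 4 fell (*Il23a*, *Il22*, *Il17ra*, *Il17rc*), against 26.4% called and 12.2% lower. The median log2 difference of the 9 genes was 0.59 in Vehicle vs WT (all genes −0.21), −0.78 under the GLP-1R agonist (0.19), −1.60 under the antibody (0.17) and −1.12 in Combo (0.00). Over all 10 pairs of groups, 31 of 90 gene-by-pair differences were called in ATMs and 13 of 70 in BM. The share of all genes called in the pairs not given elsewhere was 21.6% for Combo vs WT, 8.1% for the antibody vs the GLP-1R agonist and 14.2% for Combo vs the antibody in ATMs. In BM it was 14.7% for the GLP-1R agonist vs WT, 13.2% for Combo vs the GLP-1R agonist and 5.67% for Combo vs the antibody.

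**Figure D3:**
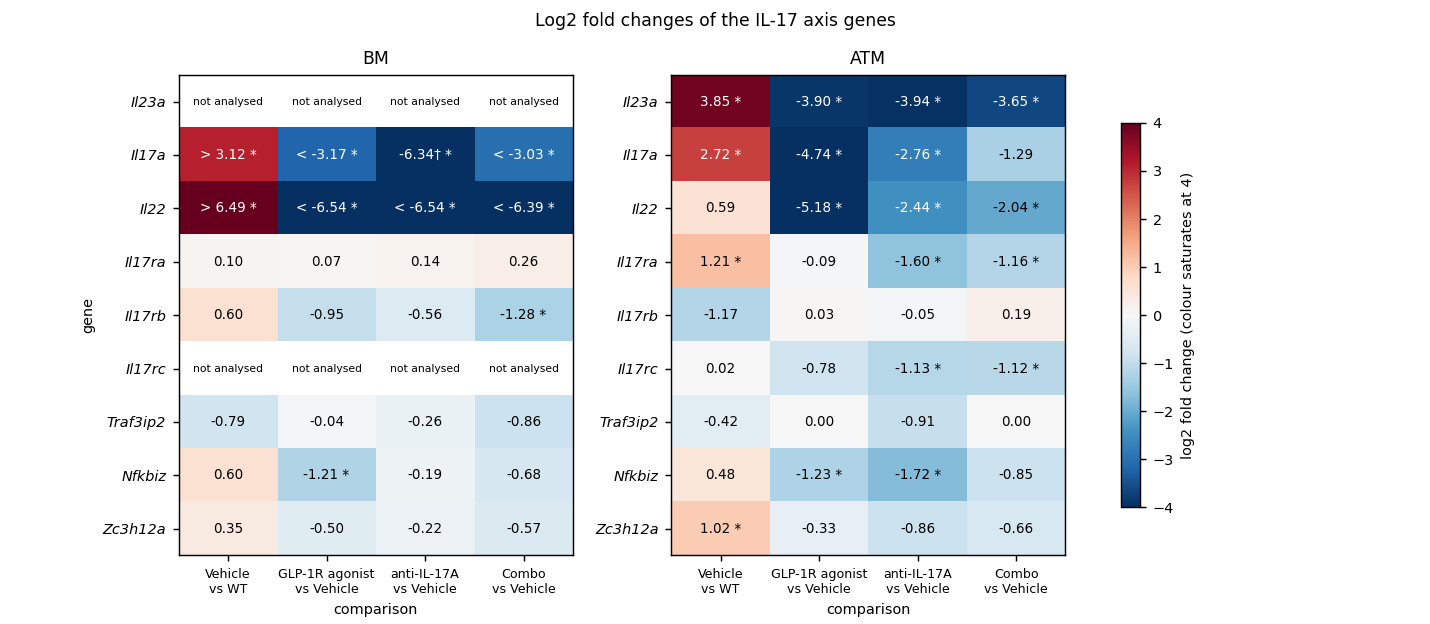
Log2 differences (colour and number) of the 9 genes (rows) in the 4 comparisons (columns) for BM (left) and ATMs (right), with * for adjusted p under 0.05 and an absolute log2 difference over 1. Values after < or > are bounds against the floor of 3 counts, † marks the ratio from 1 count, and colour saturates at 4. The cytokine rows are strongly coloured in both tissues, the *Il17ra* row is near 0 in BM and ranges from −1.60 to 1.21 in ATMs, and only the *Traf3ip2* row has no * in either tissue.

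The tissues were compared directly by an interaction term for the 7 genes in both tables. Of 28 tests, 11 passed, 3 in Vehicle vs WT, 1 under the GLP-1R agonist, 4 under the antibody and 3 in Combo, where 28.7%, 26.6%, 29.3% and 28.1% of the shared genes passed. *Il17ra* rose more in ATMs than in BM in Vehicle vs WT, by 1.11 ± 0.09 on the log2 scale (edgeR adjusted p = 1.11e-10), and its difference from Vehicle was lower in ATMs under the antibody, by −1.76 ± 0.09 (edgeR adjusted p = 7.28e-15), and in Combo, by −1.37 ± 0.09 (edgeR adjusted p = 1.46e-12). Scaled by library totals alone within each tissue, *Il17ra* in Vehicle vs WT was 0.77 in ATMs and −0.027 in BM. In Combo it was −0.74 in ATMs. Whether these tissue differences pass the limit of 1 may thus depend on the scaling. *Nfkbiz* fell more in ATMs under the antibody, by −1.56 ± 0.06 (edgeR adjusted p = 3.13e-17), whereas its fall under the GLP-1R agonist differed between tissues by −0.02 ± 0.07 (edgeR adjusted p = 0.793). The other 7 that passed were of *Il17a* and *Il22*, whose fitted sizes depend on the prior count because BM groups were at 0. With the BM value at its bound, the Vehicle vs WT difference of *Il17a* was at most −0.40, so its passing the limit of 1 rests on the prior count.

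The rest of the pathway was read from gene lists, whose counts stand against the shares of all genes called in the same direction. Besides the shares above, these were 10% lower in Vehicle vs WT and 7.6%, 7.65% and 6.58% higher under the GLP-1R agonist, the antibody and Combo in BM, and 22.9% lower and 20.8%, 22.4% and 14.1% higher in ATMs.

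Of 22 IL-17 target genes analysed in ATMs, 18 rose and none fell in Vehicle vs WT, with a median log2 difference of 2.50 (all genes −0.21). Among them *Cxcl5*, a neutrophil chemokine, rose by 9.11 on the log2 scale, and *Saa3*, an acute-phase protein gene, rose by 9.09. Against Vehicle, 13 fell under the GLP-1R agonist, 19 under the antibody and 16 in Combo, and none rose (medians −1.89, −1.95 and −1.49). *Lcn2*, which encodes a siderophore-binding protein, had log2 differences of −6.81 under the GLP-1R agonist and −6.63 under the antibody, and *Ccl2*, a monocyte chemokine, −4.33 in Combo. *S100a8* and *S100a9* of this list are also neutrophil markers, and *Nfkbiz* and *Zc3h12a* are on it too.

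In BM, 11 of 18 target genes rose and 2 fell in Vehicle vs WT (median 1.46), and 11 fell and none rose under the GLP-1R agonist (median −1.49). Under the antibody and in Combo 8 fell and 3 rose (medians −0.87 and −0.76). *Saa3* rose by 11.74 on the log2 scale in Vehicle, and its differences from Vehicle were −10.47, −11.29 and −8.49 under the GLP-1R agonist, the antibody and Combo. *Ccl2* rose by 5.74 in Vehicle and fell by 6.75 under the GLP-1R agonist.

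The list of brakes on IL-17 signalling holds *Zc3h12a* and, like the target list, *Tnfaip3*. In ATMs 9 of 14 rose in Vehicle vs WT and none fell (median 1.21), and 5, 8 and 6 fell under the GLP-1R agonist, the antibody and Combo, with none rising (medians −0.52, −1.16 and −1.02). *Tnip1*, an A20-binding inhibitor of NF-κB, rose by 2.95 on the log2 scale in Vehicle, with differences of −2.26, −2.80 and −2.57 in the treated groups. *Nfkbia*, which encodes IκBα, rose by 2.19, with differences of −1.93, −2.32 and −1.95. In BM, 3 of 13 rose in Vehicle, and 5, 3 and 5 fell in the treated groups, with 1 rising under the antibody. *Tnfaip3*, which encodes the deubiquitinase A20, rose by 1.36 in BM, with differences of −2.12, −1.77 and −2.28.

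The 22 signal transducers mostly stayed within the limits. In BM 2 rose and 2 fell in Vehicle vs WT, 3 fell under the GLP-1R agonist, 1 rose and 1 fell under the antibody, and 1 rose in Combo. In ATMs 5 rose in Vehicle, 1 rose and 3 fell under the GLP-1R agonist, 1 rose and 6 fell under the antibody, and 1 rose and 5 fell in Combo. *Cebpb*, a transcription factor gene induced by IL-17A, rose by 2.43 on the log2 scale in ATMs of Vehicle and by 1.55 in BM, with differences of −2.48 and −1.70 under the GLP-1R agonist. *Cebpd*, its relative, rose in BM under the antibody by 1.12 and in Combo by 1.35.

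Among ligands, *Il17f*, which pairs with IL-17A in a heterodimer, followed *Il17a* in BM. It went from 0.936 ± 0.874 normalized counts in WT to 32.1 ± 1.36 in Vehicle (SD, n = 3 each), a log2 difference of 4.88 ± 0.66 (edgeR adjusted p = 1.71e-08), and its differences from Vehicle were −2.34, −2.94 and −2.80 under the GLP-1R agonist, the antibody and Combo. In ATMs it rose by 2.75 in Vehicle (edgeR adjusted p = 0.0181) and fell by 3.39 under the GLP-1R agonist (edgeR adjusted p = 0.00672). Both ligands analysed in BM rose in Vehicle and fell in each treated group. Of 4 in ATMs, 2 rose and 1 fell in Vehicle, 2 fell under the GLP-1R agonist, 1 fell under the antibody and none was called in Combo.

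Of the receptor subunits, *Il17rd* rose by 1.18 in ATMs of Vehicle (edgeR adjusted p = 0.046) and *Il17re* fell by 1.63 under the antibody (edgeR adjusted p = 0.0217). With the subunits above, 2 of 5 rose in Vehicle, and 0, 3 and 2 fell in the treated groups. In BM 1 of 2 fell in Combo and no other call was made.

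Of 7 IL-23 and IL-22 genes in BM, among them *Il22* itself, 3 rose in Vehicle. *Il12rb1*, the receptor chain shared by IL-12 and IL-23, rose by 3.16 on the log2 scale, with differences of −2.89 under the antibody and −2.86 in Combo. *Il12rb2*, its IL-12 partner, rose by 2.71, with differences of −3.37, −2.65 and −3.38. In all, 4, 3 and 4 fell in the treated groups, with 1, 1 and 0 rising. Of 10 in ATMs, 2 rose and 1 fell in Vehicle, 2, 2 and 1 rose and 4, 2 and 2 fell in the treated groups. *Il12rb1* rose by 2.37 in Vehicle, and *Il12rb2* rose by 1.17 under the antibody and by 1.93 in Combo.

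The lists of Regnase-1 decay targets and of IκBζ response genes hold genes known to lie downstream of *Zc3h12a* and *Nfkbiz*. The first shares *Il6*, *Nfkbiz* and *Zc3h12a* with the IL-17 target list. The second shares *Lcn2*, *Il6*, *Csf2*, *Ccl2*, *Saa3* and *Cebpd* with it and also holds *Il17a*. Their counts are thus not separate from those above. Regnase-1 targets were mixed, with 3 up and 2 down of 8 in BM and 3 up and 1 down of 9 in ATMs in Vehicle vs WT. In BM *Ctla4*, an inhibitory T cell receptor gene, rose by 4.41 in Vehicle and *Ptgs2*, the inducible cyclooxygenase gene, fell by 4.06. The treated groups had 4, 3 and 3 of the 8 lower and 1, 2 and 2 higher in BM, and 2, 4 and 2 of 9 lower and 2, 1 and 2 higher in ATMs. Of 6 IκBζ genes in BM, 5 rose and 1 fell in Vehicle, and 5, 4 and 4 fell with 0, 1 and 1 rising in the treated groups. Of 8 in ATMs, 6 rose in Vehicle and 5, 7 and 6 fell.

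Genes of Th17 and other IL-17-producing lymphocytes were the last list, which shares *Il17f*, *Il22* and *Il23r* with the lists above. In BM 8 of 14 rose and 3 fell in Vehicle vs WT, and 7, 5 and 8 fell with 1, 2 and 1 rising in the treated groups. In ATMs 3 of 15 rose and 3 fell in Vehicle, and 3, 3 and 4 fell with 2, 1 and 2 rising. *Zbtb16*, the PLZF gene of innate-like lymphocytes, rose by 1.66 in ATMs of Vehicle and fell by 2.36 under the antibody, whereas *Maf* fell by 2.02 in Vehicle and rose by 2.32 in Combo.

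**Figure D4:**
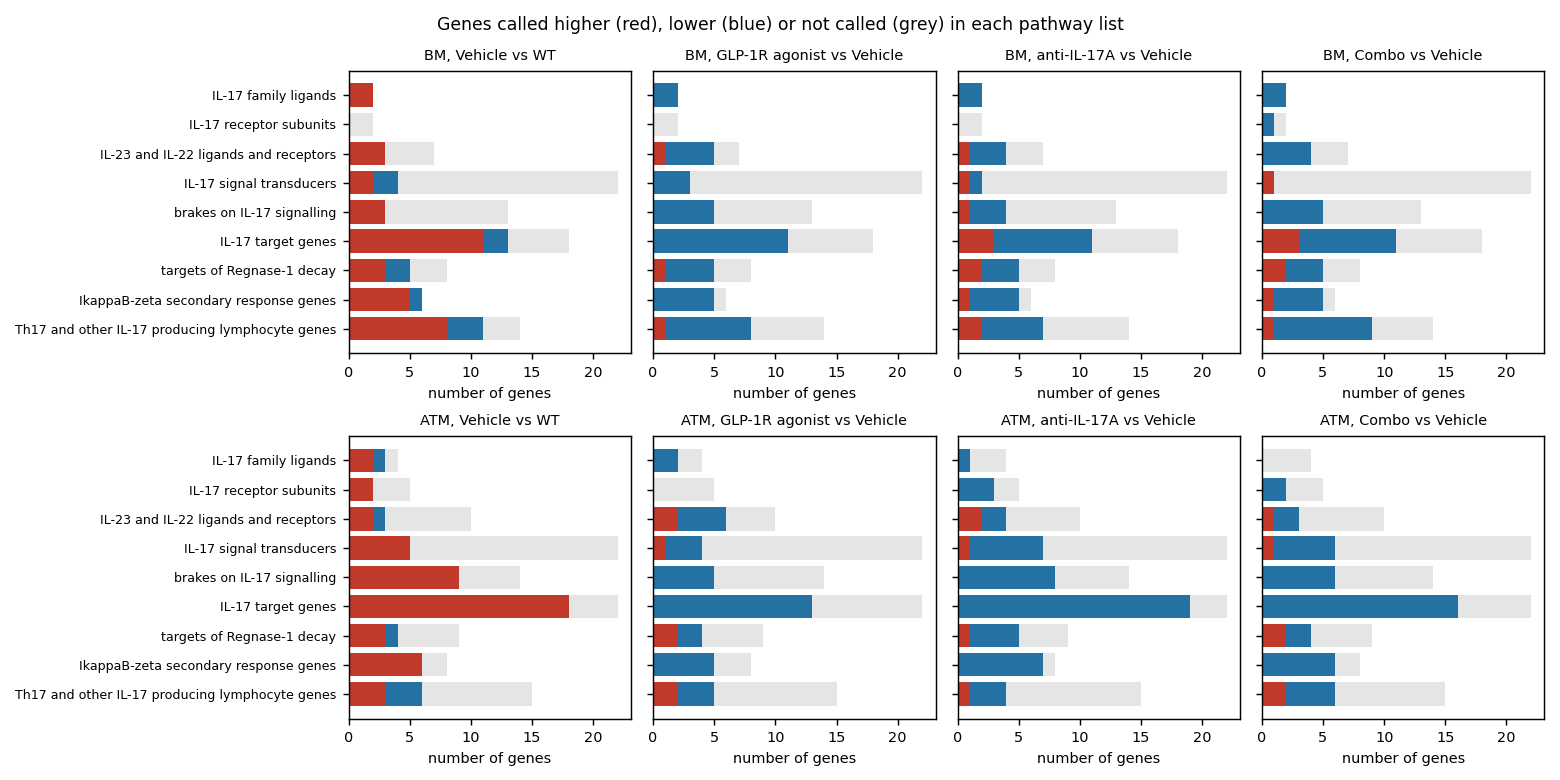
Number of genes (x axis) in each pathway list (y axis) called higher (red), lower (blue) or not called (grey), in BM (top) and ATMs (bottom) for the 4 comparisons. The IL-17 target list is mostly red in Vehicle vs WT, with 11 of 18 in BM and 18 of 22 in ATMs, and has no red in ATMs of any treated group.

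In ATMs the neutrophil markers moved with the targets and brakes in Vehicle vs WT and under either agent alone, whereas in Combo they were mixed. All 9 markers analysed rose in Vehicle vs WT, 9 fell under the GLP-1R agonist and 8 under the antibody, and in Combo 4 fell and 3 rose. *Nfkbiz*, *Zc3h12a* and *Il17ra* are also transcribed by neutrophils, and the part of these cells in the ATM values was not tested. In BM the neutrophil sum ranged from 78509 CPM under the GLP-1R agonist to 135006 CPM in Combo. The 10 macrophage markers in BM were at 878 to 893 CPM in Vehicle and 326 to 534 CPM elsewhere. The 8 B cell markers in BM were at 1282 to 1303 CPM in WT, 395 to 412 in Vehicle, 401 to 407 under the antibody and 124 to 132 under the GLP-1R agonist and in Combo. Their part in the BM values was not tested.

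**Figure D5:**
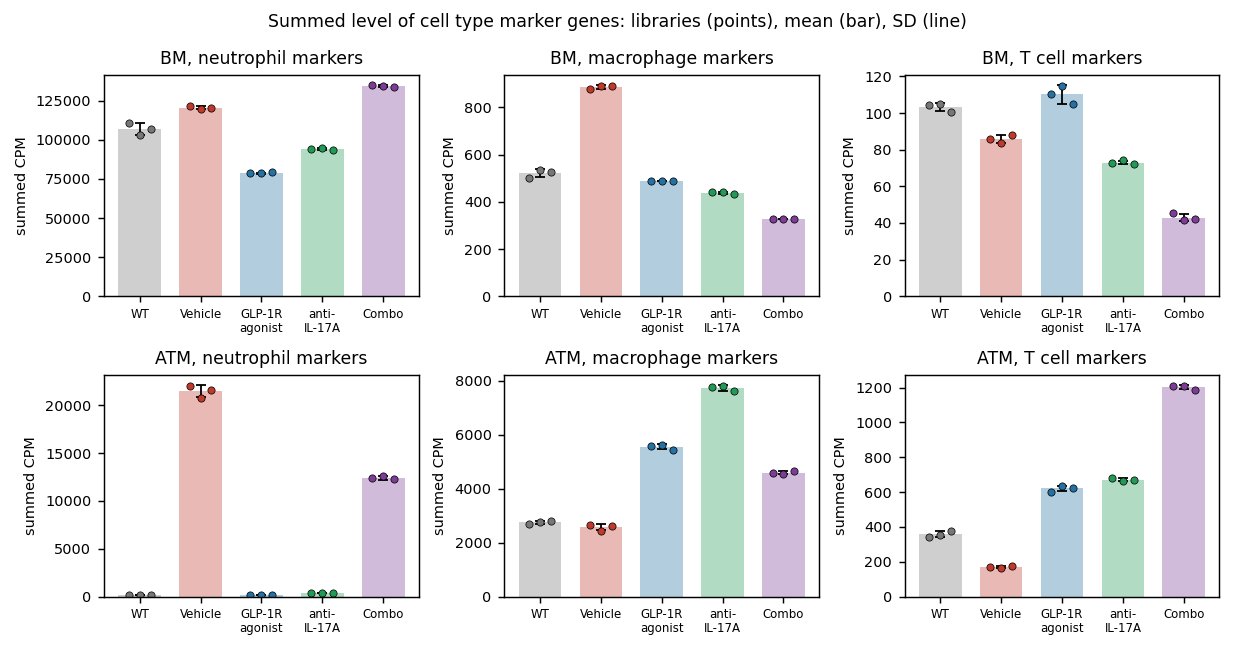
Summed CPM (y axes, from 0, different for each panel) of neutrophil, macrophage and T cell markers in BM (top) and ATMs (bottom) for the 5 groups (x axis). Points are the 3 libraries, bars the mean and lines the SD. Neutrophil markers in ATMs are high in Vehicle, at 20771 to 21982 CPM, and in Combo, and T cell markers in ATMs are lowest in Vehicle.

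Likeness over libraries was described by Pearson's r of log2(CPM + 1) over the 15 libraries of a tissue, which share their groups. In BM the genes most like *Il22* were *Sct* (r = 0.999), *Cxcl11* and *Apol9a*. *Il22* had counts in Vehicle only, so its likeness there rests on Vehicle against the other groups. The genes most like *Nfkbiz* were *Plk3* (r = 0.979), *Klf2* and *Gpr35*. *Il17ra* was nearest to *B4galnt1* (r = 0.989), *Traf3ip2* to *Folr2* (r = 0.983), *Zc3h12a* to *Fmnl2* (r = 0.951) and *Il17rb* to *Npr1* (r = 0.931). *Il17a* had a mean of fewer than 10 counts in BM and was not matched. In ATMs the nearest genes were *Psmb9* for *Il17a* (r = 0.976), *Inha* for *Il23a* (r = 0.957), *Slc5a1* for *Il22* (r = 0.964), *Stk40* for *Il17ra* (r = 0.972) and *Map1b* for *Il17rc* (r = 0.947). *Btg2* was nearest to *Nfkbiz* (r = 0.983), *Ndel1* to *Zc3h12a* (r = 0.972), *Bicd1* to *Traf3ip2* (r = 0.913) and *Prdm16* to *Il17rb* (r = 0.898).

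Among the 9 genes themselves, *Il17a* and *Il22* ran together in BM (r = 0.987), and *Il17ra* and *Traf3ip2*, receptor and adaptor, ran opposite (r = −0.929). In ATMs the closest pairs included *Il17ra* with *Zc3h12a* (r = 0.848), *Il22* with *Nfkbiz* (r = 0.816) and *Il17a* with *Il23a* (r = 0.783). These values rest on 5 groups of 3 libraries and carry no test.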

How the data were processed

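RNA-seq counts of BM and of F4/80+ ATMs (30 libraries) were analysed with edgeR 4.0.16 (R 4.3.3). For the alignment to mm10 the authors used STAR 2.7.2a, and for the counts on GENCODE M22 genes featureCounts 2.0.1, unstranded, with a minimum mapping quality of 10 and a read counted for each gene it overlapped. The deposited values are raw counts, and 0 columns belonged to no sample. No gene totalled under 55 counts in the BM table or 54 in the ATM table, while a filter on low counts is not given in the sources used here. Depth sets a floor of 3 counts per library, used wherever a group was at 0. Intervals and floors cover counting error only.

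Groups came from the labels. Per tissue, TMM scaling and a robust quasi-likelihood fit of 15 libraries were used, and p-values were adjusted by Benjamini-Hochberg over all genes (filterByExpr removed 0). A gene was called at adjusted p under 0.05 and an absolute log2 difference over 1, and the SE is from the F statistic. CPM are TMM-scaled, and normalized counts are these times the mean library size. The tissue interaction came from 1 fit of 30 libraries on 13076 shared genes. The steps were tested on simulated data.

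The members and lists were chosen with earlier results of these data known. Named genes were all members, up to 3 called genes per list and comparison with the largest log2 difference and a mean of at least 10 counts, and up to 3 genes most like each member. Alternatives were DESeq2 1.42.0, its size factors, library totals alone, other filters, no fold limit, only the groups compared, a replicate block and leaving out each library. Replicates of a group differed by more than sampling noise (chi-square per degree of freedom of 2.02 or more). This cannot tell separate mice from separate preparations of the same sample. Each library was used as a replicate, with its source not known.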

Additional observations from a re-analysis of the deposited data

Results flagged for a closer look

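For 11 of 28 tests, the effect of a comparison differed between ATMs and BM by an interaction term (adjusted p under 0.05 and a difference over 1 on the log2 scale). Each value is the effect in ATMs minus the effect in BM. For *Il17ra* it was 1.11 in Vehicle vs WT, −1.76 under the antibody and −1.37 in Combo, and for *Nfkbiz* it was −1.56 under the antibody. For *Il17a* it was −4.88 in Vehicle vs WT (adjusted p = 0.00741, edgeR), 3.07 under the antibody (adjusted p = 0.0325) and 6.36 in Combo (adjusted p = 0.000738). For *Il22* it was −10.38 in Vehicle vs WT, 5.83 under the GLP-1R agonist (adjusted p = 0.00488), 8.54 under the antibody and 8.97 in Combo. The *Il17a* and *Il22* sizes depend on the prior count, because BM groups were at 0. If a cut on totals was made, both genes are in the BM table only through Vehicle, and their tests are not independent of it. With the BM value at its bound of 3 counts, the *Il17a* difference was at most −0.40 in Vehicle vs WT, under the limit of 1, and at least 1.74 in Combo. The *Il22* difference was then at most −5.90 in Vehicle vs WT and at least 1.35 under the GLP-1R agonist, 4.10 under the antibody and 4.35 in Combo. With library totals alone within each tissue, *Il17ra* in Vehicle vs WT was 0.77 in ATMs and −0.027 in BM. The size of its tissue difference may thus depend on the scaling. The ATM libraries were sorted cells and the BM libraries were not, so tissue and sorting cannot be told apart.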

How the results depend on the processing

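Of 960 comparisons of a member with 1 library left out, 924 kept their direction and side of the threshold, and of 424 under the other settings 400 did. Requiring at least 10 counts in every library removed *Il17a*, *Il22* and other genes by construction, and left 0, 1, 0 and 1 members called in BM (Vehicle vs WT, then GLP-1R agonist, antibody and Combo vs Vehicle) and 5 over all pairs, and 2, 1, 3 and 2 in ATMs and 15 over all pairs. With the adjusted p alone, 7, 6, 7 and 7 were called in BM and 49 over all pairs, and 54 over all pairs in ATMs. The share of all genes at that threshold is not given here, so these counts say nothing particular about the axis. Library totals alone gave 2 in ATMs for Vehicle vs WT (*Il17ra* 0.77 and *Zc3h12a* 0.58 fell inside the limit) and 1 for Combo (*Il17ra*, *Il17rc* and *Il22* were lost), lost *Il17rc* under the antibody in ATMs and *Nfkbiz* under the GLP-1R agonist in BM, and moved the median of all ATM genes by −0.44, 0.22, 0.35 and 0.41 on the log2 scale. With 1 library left out, the count for ATMs ranged from 2 (without WT 2) to 5 (without Vehicle 2) in Vehicle vs WT and from 2 (without Combo 1) to 5 in Combo, and the interaction count from 10 to 15.

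Directions turned only for small or unstable values. With library totals alone they were −0.027 for BM *Il17ra* in Vehicle vs WT, 0.19 for BM *Traf3ip2* under the GLP-1R agonist, and in ATMs −0.42 for *Il17rc* in Vehicle vs WT, 0.13 for *Il17ra* under the GLP-1R agonist and 0.29 for *Il17rb* under the antibody. With DESeq2's size factors, DESeq2 and only the groups compared, ATM *Traf3ip2* under the GLP-1R agonist was −0.047, −0.046 and −0.053 and *Il17rb* −0.012, −0.013 and −0.032. ATM *Traf3ip2* in Combo was −0.016 with the size factors and with DESeq2. With 1 library left out, values ranged from −0.13 to 0.016 for BM *Traf3ip2* under the GLP-1R agonist. In ATMs they ranged from −0.10 to 0.11 for *Il17rc* in Vehicle vs WT, from −0.11 to 0.082 for *Traf3ip2* under the GLP-1R agonist and from −0.13 to 0.077 in Combo, and for *Il17rb* from −0.55 to 4.14 under the GLP-1R agonist, −0.64 to 4.07 under the antibody and −0.39 to 4.30 in Combo. The cause was not tested.

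With the replicate number as a block, all counts were as reported (2, 3, 2 and 3 in BM, 4, 4, 6 and 4 in ATMs, 13 and 31 over all pairs and 11 for the interaction). The block turned ATM *Il17rb* under the antibody to 0.75 and *Traf3ip2* in Combo to −0.0039. Within a tissue, same-numbered libraries of different groups did not deviate together (r from −0.05 to 0.13 in BM and −0.04 to 0.03 in ATMs), so no pairing by number was seen there. Same-numbered BM and ATM libraries of a group were not compared. Whether they came from the same mouse is not known, and the interaction fit took them as independent. Depth limits *Il17a* in BM, and 1 Vehicle library limits *Il17rb* in ATMs.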
